A study of Mus musculus with 6 samples.

Results

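The widest Jun-bound intervals of newborn rib cartilage cells were examined as a set: all autosomal Jun peaks of at least 400 bp. They were 3028 of the 97800 autosomal peaks (3.10%) in a list of 99162. A peak's width is its end minus its start, and the members were chosen by this width alone. The list comes from a ChIP-seq library, a sequencing library of the DNA that an antibody against Jun pulls down from cross-linked chromatin. The cells were rib chondrocytes freed by enzyme digestion from untreated wild-type ICR mice at postnatal day 1, and an input DNA library from the same kind of cells carries no antibody. The series has 1 Jun library, so no value below has a replicate check. How deeply it was read is unknown. The labels do not say how many animals it represents. The cell type was not checked against marker genes, because the RNA-seq libraries of the series were not analysed here.

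Jun is a subunit of AP-1, a dimeric transcription factor that Jun and Fos family proteins form through their leucine zippers. AP-1 binds a short palindromic DNA element, mostly in enhancers, and in cartilage it is linked to the passage of chondrocytes into hypertrophy, the enlarged state that precedes bone formation. A single AP-1 site is far shorter than any of the wide peaks. The width of a called peak also depends on the sheared fragments, which the labels' protocols put at 100 to 600 bp, and on the peak caller. Which caller was used is not stated in these sources, and its part in any result below was not tested. No sequence or gene annotation of the files' build, mm9, was used, so the peaks are named by position on mm9, counted from 1.

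The wide peaks filled a narrow band of widths with a sharp upper edge. The median was 447 bp and the central 50% lay between 423 and 472 bp, while the other 94772 autosomal peaks had a median of 112 bp and a central 50% between 87 and 146 bp. Within the band the numbers declined slowly: in 4 successive classes of 25 bp from 400 bp upwards there were 805, 787, 750 and 675 peaks, the last class ending at 498 bp. Each single width from 400 to 498 bp was taken by between 18 and 47 peaks. At 498 bp there were 23 peaks, and the next wider autosomal peak measured 505 bp. Only 11 peaks were wider than 498 bp, up to 874 bp, so 3017 of the 3028 members lay between 400 and 498 bp.

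The threshold of 400 bp itself marked no step. The 5 widths just below it held 170 peaks, and the 5 widths from 400 bp upwards held 175. Wide peaks were 3.10% of the autosomal peaks by number and 10.2% by summed width, 1357 of 13352 kb. On the X chromosome, which is outside the set, 43 of 1358 peaks reached 400 bp (3.17%, exact 95% binomial interval 2.30 to 4.24), and on Y none of 4 did. These values describe the choice of members and support nothing further.

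**Figure D1:**
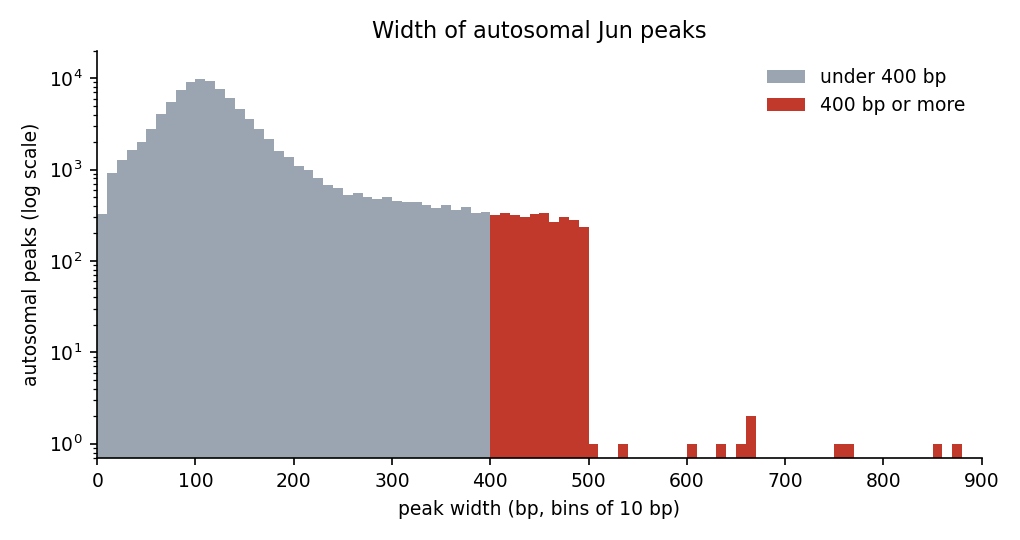
Number of autosomal Jun peaks (log scale) by width in bins of 10 bp, with peaks of 400 bp or more in red. The numbers level off above about 300 bp and stop at 498 bp, beyond which 11 peaks are scattered from 505 to 874 bp.

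Wide peaks lay close to other Jun peaks. For 1898 of the 3028 (62.7%, 60.9 to 64.4) the nearest other peak centre was within 1000 bp, while 36376 of the 94772 other peaks (38.4%, 38.1 to 38.7) had one that near. Among all autosomal peaks the share was 39.1%. Intervals in parentheses are exact 95% binomial intervals here and below. They cover counting error only and are too narrow because neighbouring peaks are not independent. No test of these differences was made, since the peaks of a single list are not replicates.

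The median distance from a wide peak's centre to the nearest other centre was 676 bp, with the central 50% between 372 and 1925 bp. For the other peaks the median was 1815 bp, with the central 50% between 592 and 7228 bp. Neighbours on both sides within 1000 bp were found for 18.7% of the wide peaks and 7.13% of the others. At the far end, 275 wide peaks (9.08%) had no other centre within 10 kb, against 19.4% of the others. More than 100 kb from any other peak centre lay 11 wide peaks (0.363%), against 1.10% of the others and 1.08% of all autosomal peaks. Peaks from 300 to under 400 bp came near the set in these measures. Of them 16.6% had neighbours on both sides within 1000 bp, 10.7% had none within 10 kb and 0.227% had none within 100 kb.

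From 100 bp upwards, wider classes had a near neighbour more often, up to about 300 bp. A neighbour within 1000 bp was found for 34.0% of peaks from 100 to under 150 bp, 49.5% of those from 200 to under 300 bp and 60.7% (59.2 to 62.3) of those from 300 to under 400 bp. The interval of that last class overlaps the interval of the wide peaks. Within the set, peaks from 400 to under 450 bp (63.1%, 60.6 to 65.4) and from 450 to 498 bp (62.5%, 59.95 to 65.05) did not differ beyond their counting intervals. By this measure the set could not be told apart from the class just below the threshold. Peaks under 50 bp, the narrowest class, also had a neighbour within 1000 bp more often (47.5%) than those from 100 to under 150 bp.

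Overlap with another peak was more frequent among wide peaks, also in comparison with those from 300 to under 400 bp. Of the 3028, 757 (25%, 23.5 to 26.6) overlapped or touched another peak, against 2097 of the other peaks (2.21%, 2.12 to 2.31) and 2.92% of all autosomal peaks. A wider interval has more room to meet a neighbour, and the share was larger in the wider classes, with 0.993% from 100 to under 150 bp, 7.45% from 200 to under 300 bp and 18.8% (17.6 to 20.1) from 300 to under 400 bp. It was 23.2% (21.2 to 25.4) from 400 to under 450 bp and 27.2% (24.9 to 29.5) from 450 to 498 bp. In tiles of 100 kb with 20 or more peaks 28.8% of the wide peaks overlapped or touched another peak, and outside them 23.7% did. The other peaks gave 3.69% and 1.96% in the same tiles.

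The overlaps were partial, and no autosomal interval lay inside another. Of 1512 overlapping or touching pairs, 489 joined a wide peak to a narrower one and 161 joined 2 wide peaks, together 43.0% of the pairs. In those 650 pairs the intervals shared a median of 93 bp (central 50% from 55 to 123 bp, at most 315 bp), and 3 pairs met without sharing a base. From the outer edge of one peak to that of the other, these pairs extended over a median of 682 bp. Of them 95.1% extended over more than 498 bp, which a member of at least 400 bp makes likely by construction. Pairs without a wide peak extended over a median of 405 bp. The largest joint extent was 949 bp. The narrower partner of a wide peak had a median width of 302 bp, and 80.6% of these partners measured 200 bp or more. All autosomal peaks had a median width of 114 bp. Because overlap was more frequent in wider classes, as given above, overlapping peaks of any kind are drawn more from broad ones.

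None of the 11 peaks over 498 bp overlapped or touched another peak. Taking 3 counts as the most that a count of 0 allows, 0 of 11 permits a share of up to 27.3% (28.5% as the upper bound of the exact interval), which lies above the 25% of the whole set, so a difference was not detectable with 11 peaks. Their gaps to the next edge ran from 153 to 18334 bp.

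**Figure D2:**
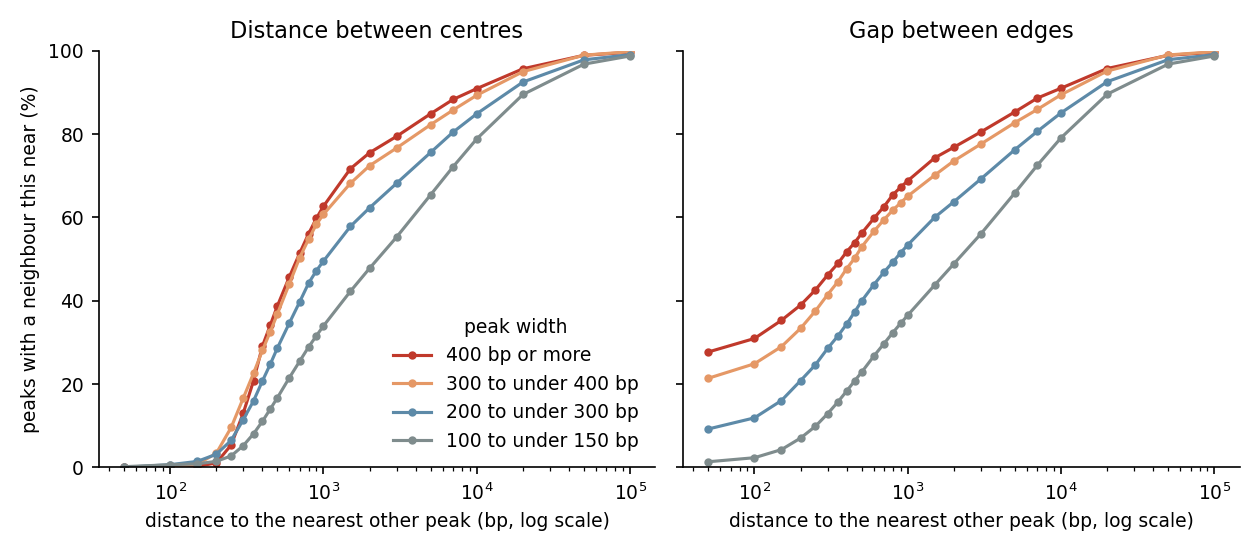
Percentage of peaks whose nearest other peak lies within the distance on the log-scaled x axis, measured between centres (left) and between edges (right), for 4 classes of width. The curves of peaks from 300 to under 400 bp and of 400 bp or more run close together between centres, with 60.7% and 62.7% at 1000 bp, and both lie above the narrower classes from about 300 bp outwards.

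Wide peaks also lay next to each other. The nearest neighbour was itself wide for 401 of 3028 wide peaks (13.2%, 12.1 to 14.5), against 3.19% (3.08 to 3.30) for the other peaks and 3.50% for all autosomal peaks. Peaks from 300 to under 400 bp had a wide nearest neighbour in 9.56% (8.67 to 10.5) of cases. The neighbour measured 200 bp or more for 36.4% of the wide peaks, 31.8% of the peaks from 300 to under 400 bp and 14.6% of all others. The median width of the nearest neighbour was 142 bp for wide peaks and 114 bp for the rest, so the typical neighbour of a wide peak was still a narrow one. When only neighbours to the right within 1000 bp were counted, 18.3% of those next to a wide peak were wide, against 5.14% of those next to another peak.

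Unbroken runs of wide peaks, each centre within 1000 bp of the one before, were short. Of the 3028 wide peaks, 2622 stood alone in this sense and 406 belonged to 197 runs of 2 or more. There were 186 runs of 2, 10 of 3 and 1 of 4. The run of 4 lay on chromosome 6 from 67240134 to 67242263 and spanned 2130 bp. The longest run of 3 lay on chromosome 11 from 75580790 to 75582799, spanned 2010 bp and began with a peak of 632 bp.

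Fuller stretches of the genome held more wide peaks, also as a share of all peaks there. Cutting the chromosomes into tiles of 100 kb, 773 of the 3028 wide peaks (25.5%, 24.0 to 27.1) lay in tiles with 20 or more peaks of any width. The share was 14.7% (14.5 to 14.9) for the other peaks and 15.0% for all autosomal peaks. Wide peaks were thus 1.74 times as frequent in such tiles as the others. Peaks from 300 to under 400 bp came nearer to them, with 21.9% (20.6 to 23.2), and against all peaks from 200 to under 400 bp (19.7%) the difference was 5.79 percentage points in place of 10.8. Only 33 wide peaks (1.09%) were alone in their tile, against 2.97% of the other peaks.

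Read from the tiles' side, the share of wide peaks was larger in each fuller class of tiles. It was 1.16% (0.799 to 1.62) for peaks alone in a tile, 2.10% in tiles of 2 to 4 peaks and 2.56% in tiles of 5 to 9. Tiles of 10 to 19 peaks gave 3.22%, tiles of 20 to 39 gave 4.68% (4.31 to 5.06), and the 43 tiles of 40 to 90 peaks gave 8.54% (7.41 to 9.77). Counting intervals of adjacent classes did not overlap, though the upper bound for tiles of 2 to 4 peaks (2.35) lay just under the lower bound for tiles of 5 to 9 (2.38). The share differed 7.36-fold between the first and the last class. Of the 43 fullest tiles 41 held a wide peak, against 2221 of all 15684 occupied tiles. A tile with more peaks has more chances to hold a wide one, so this count adds nothing to the shares.

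Dense tiles without a wide peak also occurred. Of the 544 tiles with 20 or more peaks, 360 (66.2%) held at least 1 wide peak and 184 held none, the fullest of these having 43 peaks. Tiles of 10 to 19 peaks, with fewer chances to hold one, held a wide peak in 32.1% of cases. In 92 dense tiles there were 3 or more wide peaks. Most wide peaks were nevertheless single in their tile: 1698 tiles held exactly 1, which is 56.1% of the set and 148 held 3 or more. Tiles with 5 or more wide peaks numbered 32 and held 204 of the 3028.

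**Figure D3:**
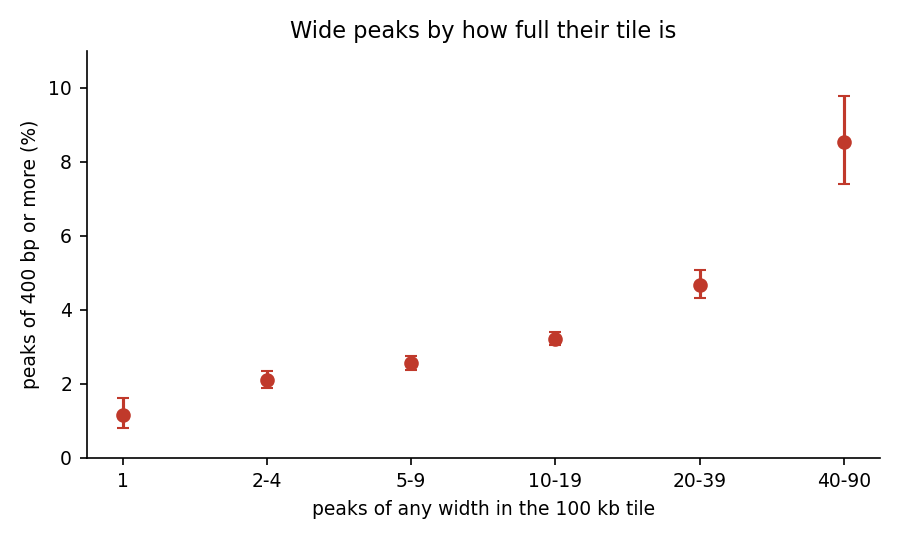
Percentage of peaks that measure 400 bp or more, by the number of peaks of any width in their 100 kb tile. Points are shares and bars exact 95% binomial intervals, and the share goes from 1.16% for lone peaks to 8.54% in tiles of 40 to 90 peaks.

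The tile with the most wide peaks was on chromosome 4 from 62900001 to 63000000, with 12 wide peaks among 90 (13.3%, 7.08 to 22.1). A tile on chromosome 17 from 3400001 to 3500000 came next with 10 among 45, or 22.2% (11.2 to 37.1). It had fewer peaks than the other leading tiles and the highest share of wide ones among the 5. The tile on chromosome 7 from 86200001 to 86300000 held 9 wide peaks among 72, including the third widest peak of the list. On chromosome 15 from 27400001 to 27500000 there were 9 among 66, and on chromosome 7 from 124600001 to 124700000 there were 8 among 80, the fullest of 4 tiles with 8 wide peaks. Counting intervals of these 5 shares overlap, so no order among them can be read.

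Groups in which each centre lies within 10 kb of the next crossed the tile borders. The group on chromosome 4 from 62842462 to 62999473 held 17 wide peaks among 141, and 16 of its peaks overlapped or touched another. A group on chromosome 1 from 92598601 to 92767891 held 15 among 136. The third place was shared by 3 groups with 9 wide peaks each. Of these the group on chromosome 17 from 3416864 to 3471067 was the smallest, with 35 peaks in 54.2 kb, and 25.7% of its peaks were wide. The other two lay on chromosome 7, with 128 and 73 peaks. The 3028 wide peaks were spread over 2390 groups, and 27 groups held 5 or more of them.

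Within groups of 5 or more peaks, wide peaks were less often at an end than the other peaks. Of 1755 wide peaks in such groups 14.5% (12.9 to 16.3) were the first or last peak, against 22.9% (22.5 to 23.3) of the others. For peaks from 300 to under 400 bp the share was 15.5% (14.0 to 17.1), which overlaps the wide peaks' interval. Larger groups have fewer end positions per peak, so the shares were also taken by group size. In groups of 5 to 9 peaks they were 23.3% (20.4 to 26.4) and 32.1%, in groups of 10 to 19 peaks 10.0% (7.52 to 13.1) and 15.8%. In groups of 20 to 141 peaks they were 4.27% (2.63 to 6.52) and 6.41% (5.860 to 7.003), where the intervals overlap.

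In the deposited order of the list, whose meaning is not stated, wide peaks came late. Their median place was at 63.7% of the list (62.0 to 65.2), against 49.4% (49.0 to 49.7) for the other autosomal peaks. The first 10% of the list held 76 of the 3028 wide peaks, or 2.51% of the set, where it held 10.1% of all autosomal peaks. The last 10% held 460, or 15.2%, against 9.90% of all autosomal peaks. By 10% parts the share of wide peaks went from 0.771% (0.608 to 0.964) in the first through 3.51% in the fifth to 4.75% (4.34 to 5.19) in the last, 6.16-fold higher. It was not higher at each step, since the sixth part gave 3.29%.

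Narrower classes came late as well. Peaks from 200 to under 400 bp had their median at 66.5% of the list (65.6 to 67.4), later than the wide peaks, and their share was 5.20-fold higher in the closing than in the opening 10% of rows. Peaks under 50 bp also lay late, with a median at 60.2%. The earliest class was that from 100 to under 150 bp, with a median at 42.8%.

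The 11 peaks over 498 bp stood on the other side. All 11 lay in the first 50% of the list, at rows 8245 to 47033 with a median place at 28.2%. Of the wide peaks as a whole 34.9% (33.2 to 36.7) lay in the first 50%.

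The 5 wide peaks earliest in the list were at rows 60 to 537. The first was the 477 bp peak on chromosome 6 from 134471887 to 134472363, whose nearest neighbour was 5783 bp away. The second, at row 112, measured 465 bp on chromosome 19 from 5841180 to 5841644 and overlapped a peak of 137 bp. The next 3 lay on chromosomes 3 (from 27506494), 2 (from 118269971) and 10 (from 59040923), each within 536 bp of another centre. The 5 latest lay at rows 99003 to 99123 on chromosomes 14, 6, 11, 12 and 17 and measured 417 to 458 bp. None of the latest 5 overlapped another peak, and 2 of the earliest 5 did. With 25% of the whole set overlapping or touching another peak, 5 peaks at each end are too few to compare.

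Where a wide peak had a neighbour within 1000 bp, the neighbour stood earlier in the list in 1152 of 1898 cases (60.7%, 58.5 to 62.9). For the other peaks the share was 48.9% (48.3 to 49.4), and for peaks from 200 to under 400 bp it was 59.5% (58.2 to 60.8), which overlaps the wide peaks' interval. Among the 489 overlapping pairs of a wide and a narrower peak, the wide one was listed later in 288 (58.9%, 54.4 to 63.3). A peak that stands late has more of the list before it, so these shares follow at least partly from list place. Peaks under 50 bp, which also lay late, gave 57.7% (55.9 to 59.5) for neighbours within 1000 bp. A relation between neighbours beyond their list place was not tested.

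**Figure D4:**
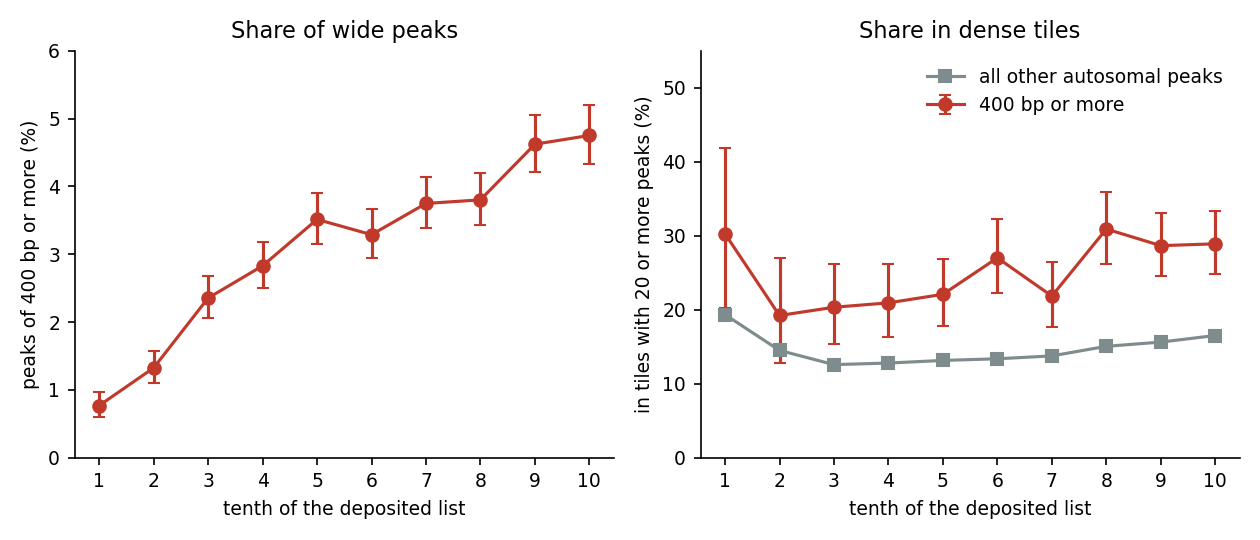
Left, percentage of peaks of 400 bp or more in each successive 10% of the deposited list. Right, percentage lying in 100 kb tiles with 20 or more peaks, for wide peaks in red and all other autosomal peaks in grey. Bars are exact 95% binomial intervals, and the red points lie above the grey ones in all 10 parts, between 19.2% and 30.9%.

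The difference in density was seen throughout the list. In each 10% part of the list, wide peaks lay in dense tiles more often than the other peaks of that part, with shares of 19.2% to 30.9%. In the second part the interval of the wide peaks (12.8 to 27.1) still included the other peaks' 14.5%. A neighbour within 1000 bp was likewise more frequent for wide peaks in all 10 parts, at 43.8% to 67.5% against 36.0% to 41.0%. Here too the interval in the second part (35.2 to 52.8) included the other peaks' 36.0%.

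Wide peaks were found on all 19 autosomes in shares of 2.39% to 3.80%. Chromosome 7 had the highest share, 220 of 5793 peaks (3.80%, 3.32 to 4.32). Chromosome 19 followed with 107 of 3072 (3.48%, 2.86 to 4.19) and chromosome 4 with 210 of 6297 (3.33%, 2.91 to 3.81). The lowest shares were on chromosome 14, with 92 of 3851 (2.39%, 1.93 to 2.92), chromosome 12, with 101 of 3979 (2.54%, 2.07 to 3.08), and chromosome 13, with 133 of 4710 (2.82%, 2.37 to 3.34). Between chromosomes 7 and 14 the share differed 1.59-fold, and their intervals did not overlap. They were picked as the extremes of 19 shares, so the lack of overlap does not test a difference. Which autosome led depended on the members: it was chromosome 19 for peaks of at least 350 bp (5.99%) and for peaks that overlap no other (2.88%). For 16 of the 19 autosomes the interval included the overall 3.10%, the exceptions being chromosomes 7, 12 and 14.

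Per Mb between the first and last peak of a chromosome, wide peaks numbered from 0.794 on chromosome 14 to 1.87 on chromosome 11. Chromosomes 14 and 12 also had the lowest density of peaks of any width, 33.3 and 33.7 per Mb. Chromosome 7, with the highest share of wide peaks, had 38.8 peaks per Mb, below chromosome 11 with 57.7. The differences between wide peaks and all other peaks had the same direction on each autosome. On all 19, wide peaks were more often in dense tiles than the others (16.8% to 34.0% against 10.9% to 19.1%), though on chromosome 16 the interval of the 16.8% (10.3 to 25.3) included the others' 10.9%. On all 19 they were also more often within 1000 bp of a neighbour (57.8% to 72.2% against 35.5% to 41.5%). Likewise they overlapped or touched another peak more often on all 19 (19.3% to 34.6% against 1.58% to 2.79%). Their median place in the list was later on all 19, at 57.6% to 67.8% against 48.1% to 51.1%. Over all autosomes together, the width classes just below the threshold came near the set in several of these measures. Those classes were not compared by autosome, so the 19 comparisons do not set wide peaks apart from them.

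**Figure D5:**
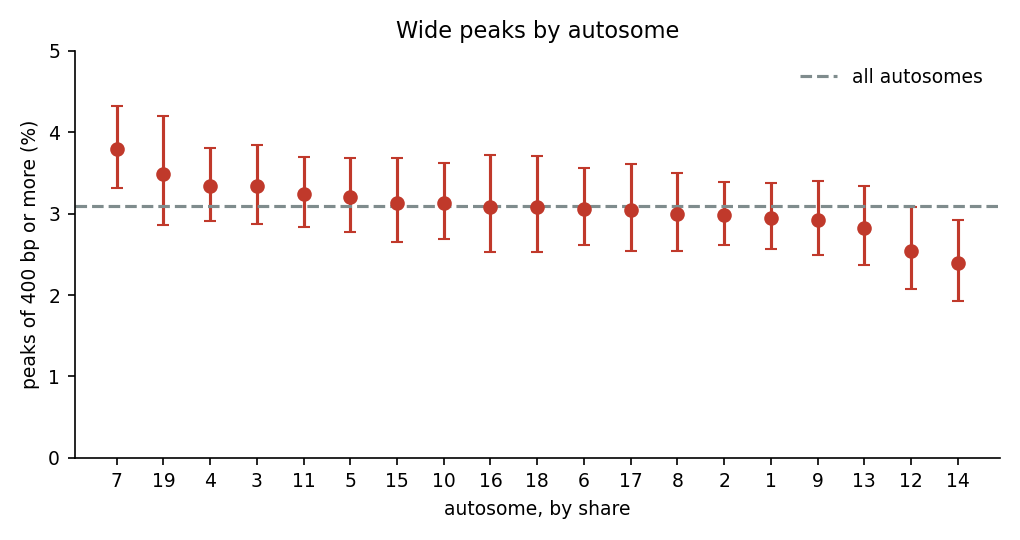
Percentage of each autosome's peaks that measure 400 bp or more, ordered by share, with exact 95% binomial intervals and the share over all autosomes as a dashed line. Chromosome 7 (3.80%) lies above the line, chromosomes 12 (2.54%) and 14 (2.39%) lie below it, and the other intervals include it.

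The 20 widest peaks were the 11 over 498 bp and, by order of chromosome and start, 9 of the 23 at exactly 498 bp. The widest, 874 bp on chromosome 4 from 11642348 to 11643221, stood at row 8245 and 1014 bp from the next edge. The second, 850 bp on chromosome 6 from 90607670 to 90608519, had its next edge 2133 bp away. The third, 764 bp on chromosome 7 from 86241559 to 86242322, had a wide peak of 480 bp as its nearest neighbour, at 1021 bp between centres. The 11 lay on 9 autosomes, with 2 each on chromosomes 4 and 10. Of these 11 peaks 5 lay in tiles with 20 or more peaks (45.5%, 16.7 to 76.6). That interval includes the 25.5% of the whole set, and the share among all autosomal peaks was 15.0%. The narrowest of the 11, 505 bp on chromosome 10 from 7401151 to 7401655, lay in a tile with 3 peaks. The nearest centres of the 11 were 705 to 18639 bp away, with a median of 1322 bp.

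The 9 named peaks of 498 bp lay on chromosomes 1, 3, 4, 5 and 6. Of these, 3 overlapped another peak: one on chromosome 1 from 92703000 to 92703497, next to a peak of 419 bp, one on chromosome 4 from 45421401 to 45421898, next to one of 402 bp, and one on chromosome 5 from 140267443 to 140267940, next to one of 115 bp. The most remote of the 9 was on chromosome 3 from 53267167 to 53267664, 14780 bp from the next edge. Peaks at the upper edge of the band thus included both crowded and isolated ones.

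The wide peaks farthest from any other peak lay on chromosomes 5, 4, 6 and 1. The most isolated was a 473 bp peak on chromosome 5 from 84846130 to 84846602, with the nearest centre 979572 bp away. Next came a 450 bp peak on chromosome 4 (96212414 to 96212863) at 553021 bp and a 489 bp peak on chromosome 6 (23788828 to 23789316) at 523697 bp. A 416 bp peak on chromosome 1 (47271758 to 47272173) and a 482 bp peak on chromosome 4 (12834064 to 12834545) had theirs at 228420 and 220068 bp. All 5 were alone in their tile, which their distance from other peaks makes certain. They stood in the last 50% of the list, at 53.0% to 82.3%, as did 1970 of all 3028 wide peaks. Which genes any of these peaks lie in or near was not determined.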

How the data were processed

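The deposited file lists chromosome, start and end of each Jun peak (unit other: positions in bp), on mm9 per the submitters' processing notes. It has no header, score, height or strand. No label or header names the aligner, the peak caller or a threshold; the list's name carries an FDR mark and another mark that nothing explains. The list names no sample. It was assigned to the Jun library, the only Jun ChIP among the 6 samples. The input and RNA-seq libraries were not analysed.

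The members, lists and comparisons were chosen with earlier results of these data known. Autosomal peaks were sorted by centre, and distances, gaps, tile counts (tiles of 100 kb from the chromosome start, by centre) and list rows were computed with pandas 2.3.3, numpy 2.4.6 and scipy 1.17.1 under Python 3.11.15. The computations were tested on simulated data. Intervals of shares are exact (Clopper-Pearson, 95%), and those of medians come from binomial order statistics. No p-value was computed.

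Named were the 20 widest peaks, the 5 tiles and 3 groups (ties kept) with the most wide peaks, the 3 highest and 3 lowest autosomes by share, and the 5 most isolated, 5 earliest and 5 latest wide peaks. Runs of wide peaks, overlapping pairs and the peaks over 498 bp were added after their values were seen. Shares at group ends and the list order of neighbours were not among the planned comparisons either. Alternatives changed the width, tile, distance and part of the list. Motifs and genes at the peaks need mm9 sequence and annotation and were not analysed here.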

Additional observations from a re-analysis of the deposited data

How the results depend on the processing

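Differences are wide minus other peaks, as shares in percentage points or, for list place, as median places in percent of the list. For autosomes they are the highest minus the lowest share of wide peaks. Of 41 alternatives, 8 of them chosen after seeing the data, 40 kept the direction and 21 stayed within the counting interval of the main value. Among the 40, those for the highest minus the lowest autosome could not reverse, since that difference is positive by construction. The 1 reversal was in list place: against other peaks from 200 to under 400 bp, also chosen later, the difference of medians was -2.87 instead of 14.3, and among peaks of dense tiles alone it was 19.4. The difference in dense tiles, 10.8, was 9.12 for peaks of at least 300 bp, 6.77 for tiles with 30 or more peaks, 8.58 with tile counts over peaks under 400 bp and 5.79 against peaks from 200 to under 400 bp. It was 3.07 with peaks within 1000 bp merged and 3.37 in the first and 5.90 in the second 50% of rows, where fewer peaks enter a tile by construction. Both shares were smaller there, 5.13% against 2.06% with merging, 5.39% against 2.02% in the first and 9.54% against 3.65% in the second 50%. For tiles with 30 or more peaks they were 11.7% against 4.95%. These differences therefore cannot be set directly against 10.8. The difference in neighbours within 1000 bp, 24.3, was 27.8 between edges, 18.55 within 500 bp, 10.3 within 10000 bp and 9.01 against peaks from 200 to under 400 bp. It was 13.3 among peaks that overlap no other. The difference in a wide next peak, 13.2 within 1000 bp, was 25.7 within 500 bp, 10.4 within 2000 bp and 7.82 within 10000 bp. The highest minus the lowest autosome, 1.41, was 2.45 for at least 300 bp and 0.842 for at least 450 bp (chromosomes 7 and 12), and 0.921 (chromosomes 19 and 14) without overlapping peaks. Beyond what the settings themselves fix, the cause was not tested. No paired analysis was possible because the list comes from 1 library. With no read depth, a width cannot be set against its signal.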
